A study of Rattus norvegicus with 16 samples.

Results

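A set of 10 genes of neutrophils is described here across the lungs of 16 rats: S100a8, S100a9, Mmp8, Retnlg, Fcar, Cxcr2, Csf3r, Clec4d, Il1r2 and Mmp9. They are among the 14506 genes with a probe set of their own on the array, and each was read by 1 probe set. They were chosen by their log2 array values, which were higher with estradiol under hypoxia than under hypoxia alone. That difference is therefore a description of the choice, and so is every value of the arrays that made it.

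The 16 animals were male Sprague-Dawley rats of 250 to 300 g, 4 in each group, and the right lung of each was hybridised to 1 array. Rats of the hypoxia+estrogen+fulvestrant group spent 2 weeks in hypobaric hypoxia (362 mmHg, equivalent to 10% oxygen at sea level), had a subcutaneous pump releasing 17β-estradiol at 75 µg/kg/day for 3 weeks, and were injected daily with 3 mg/kg/day of fulvestrant, a drug that blocks and degrades estrogen receptors. The hypoxia+estrogen rats had the same hypoxia and pump without fulvestrant, the hypoxia rats had the same hypoxia with no drug, and the normoxia rats were kept as controls outside the chamber. The labels give neither ages nor whether undosed rats carried pumps or received vehicle injections, and they describe no group of fulvestrant alone and none of estradiol in normoxia. The groups are called estradiol-fulvestrant, estradiol, hypoxia and normoxia lungs below. Saline was run through the pulmonary vessels to clear blood before the lungs were frozen.

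Neutrophils are short-lived granulocytes made in the bone marrow, released into blood under the control of granulocyte colony-stimulating factor and drawn into tissue by chemokines that bind the receptor CXCR2. The lung holds a large pool of them in its capillaries, so a whole-lung sample contains neutrophils of vessels as well as of tissue. Their granule enzymes are transcribed mainly in marrow precursors, whereas calprotectin, the chemokine receptors and several lectins remain abundant as mRNA in mature cells. In these bulk samples a change in the number of neutrophils and a change in mRNA per cell cannot be told apart.

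The deposited values were already normalized between arrays, which makes their medians alike (7.69 to 7.77 on the log2 scale). Correlations between arrays were 0.985 to 0.996. The labelled tissue was borne out by its epithelial markers: Sftpc, Scgb1a1 and Ager, of alveolar type 2, club and alveolar type 1 cells, had mean log2 values of 13.92, 13.75 and 13.53, above at least 99.8% of genes. Estradiol replicates 2 and 3 stood apart from the other arrays on the second principal component (17.4% of the variance), at -25.4 and -22.3 against -5.2 to 7.9. Normoxia replicate 4 is normoxia by title and hypoxia by its treatment field. On the first component (22.1%) it lay at -19.7, with the other normoxia arrays at -20.8 to -12.0 and the hypoxia arrays at 1.4 to 16.3, and it was kept as normoxia. Both matters touch the members, and values without these arrays, or with normoxia replicate 4 counted as hypoxia, are given for the comparisons of the members and for the counts of other listed genes.

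The 10 genes lie on 8 chromosomes. S100a8 and S100a9 are direct neighbours on chromosome 2, and Il1r2 and Cxcr2 share chromosome 9. RefSeq promoter windows of the rat build GRCr8 were at hand for 7 members (S100a9, Mmp8, Retnlg, Fcar, Cxcr2, Csf3r and Clec4d). The last 150 bases before the annotated start are shown for 5 of them, 4 that represent the secreted proteins and receptors described below and Retnlg, whose values followed the others least. Capitals mark matches, on either strand, to TATAAA (the TATA box), TTNCNNAA (a loose form of the site of C/EBP factors, which drive granulocyte genes), GAGGAA (a core of the PU.1 site) and AGGTCA (a half-site of estrogen and other nuclear receptors).
S100a9, chr2:178490623-178490772, minus strand: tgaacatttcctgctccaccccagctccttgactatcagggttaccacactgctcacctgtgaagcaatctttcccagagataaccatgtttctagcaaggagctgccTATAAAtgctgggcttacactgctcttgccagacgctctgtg
Mmp8, chr8:13008740-13008889, plus strand: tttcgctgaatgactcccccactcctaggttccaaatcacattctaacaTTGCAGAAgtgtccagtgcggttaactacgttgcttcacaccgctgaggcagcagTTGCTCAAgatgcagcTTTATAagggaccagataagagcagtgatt
Csf3r, chr5:143583070-143583219, plus strand: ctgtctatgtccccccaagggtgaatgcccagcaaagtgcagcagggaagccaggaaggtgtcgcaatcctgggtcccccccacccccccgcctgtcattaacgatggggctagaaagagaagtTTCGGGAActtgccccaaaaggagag
Cxcr2, chr9:83178495-83178644, plus strand: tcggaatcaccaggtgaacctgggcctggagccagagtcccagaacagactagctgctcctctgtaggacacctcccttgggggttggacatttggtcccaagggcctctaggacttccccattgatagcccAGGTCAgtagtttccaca
Retnlg, chr11:65395640-65395789, minus strand: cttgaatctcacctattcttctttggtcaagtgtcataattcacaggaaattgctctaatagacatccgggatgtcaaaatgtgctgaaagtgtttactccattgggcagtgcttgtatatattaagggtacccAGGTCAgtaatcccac
Over 250 bases before the start, TTNCNNAA was found in 5 of the 7 members (all but Retnlg and Cxcr2) and in 37.2% of 33469 windows of the same length, and GAGGAA in 3 of 7 (S100a9, Csf3r and Clec4d) against 23.3%. TATAAA was found in 3 of 7 (S100a9, Mmp8 and Fcar) against 12.9%, and AGGTCA in 2 of 7 (Retnlg and Cxcr2) against 14.1%. The full palindromic estrogen response element was in 0 of 7 windows, and in 0.0239% of all windows. The palindromic glucocorticoid response element was likewise in 0 of 7, against 0.373%. These matches describe letters and not binding.

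S100a8 and S100a9 encode the subunits of calprotectin, the calcium- and zinc-binding protein that fills the neutrophil cytosol. S100a8 (probe set 10817071) had log2 values of 6.63, 7.02, 7.18 and 6.42 in estradiol-fulvestrant lungs, 7.33, 8.51, 8.35 and 7.24 in estradiol lungs, 6.33, 5.97, 5.72 and 6.43 in hypoxia lungs and 6.80, 6.40, 6.45 and 7.0 in normoxia lungs. Every estradiol array lay above every other array, and every hypoxia array below all but 2 of the other 12, estradiol-fulvestrant replicate 4 and normoxia replicate 2. S100a9 (10824695) ran from 9.69 to 10.48 in estradiol-fulvestrant lungs, 10.39 to 11.54 in estradiol lungs, 8.71 to 9.83 in hypoxia lungs and 9.32 to 10.38 in normoxia lungs. Its estradiol arrays were above all hypoxia and normoxia arrays and overlapped the estradiol-fulvestrant arrays.

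Mmp8, neutrophil collagenase, and Mmp9, gelatinase B, are granule proteases that cut collagens and matrix proteins. Mmp8 (10907913) had log2 values of 7.99, 8.85, 9.23 and 8.09 in estradiol-fulvestrant lungs, 9.10, 10.54, 9.62 and 8.93 in estradiol lungs, 8.29, 7.62, 7.18 and 7.32 in hypoxia lungs and 8.90, 8.36, 7.85 and 8.50 in normoxia lungs. Mmp9 (10842239), which macrophages also make, ran from 7.69 to 8.55, from 8.12 to 9.51, from 7.27 to 8.08 and from 7.74 to 8.26 in the same order of groups. For both genes the estradiol arrays overlapped those of estradiol-fulvestrant lungs and lay above those of hypoxia lungs. Retnlg, a secreted resistin-like cysteine-rich protein of myeloid cells (10753861), had values of 7.64, 7.60, 8.09 and 9.01 in estradiol-fulvestrant lungs, 8.87, 9.84, 8.95 and 9.00 in estradiol lungs, 7.58, 7.16, 7.42 and 7.56 in hypoxia lungs and 8.94, 9.24, 7.77 and 7.76 in normoxia lungs. Its hypoxia arrays lay below every other array, while normoxia split into a high pair (replicates 1 and 2) and a low pair (3 and 4).

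Among the receptors, Cxcr2 binds the chemokines that recruit neutrophils and Csf3r binds granulocyte colony-stimulating factor. Cxcr2 (10924245) had log2 values of 8.90, 9.18, 9.42 and 8.87 in estradiol-fulvestrant lungs, 8.89, 9.81, 10.46 and 9.00 in estradiol lungs, 8.63, 8.03, 7.62 and 7.94 in hypoxia lungs and 8.98, 8.75, 8.27 and 9.11 in normoxia lungs. Csf3r (10871957) had values of 9.96, 10.15, 9.80 and 9.87 in estradiol-fulvestrant lungs, 9.78, 10.12, 11.13 and 9.93 in estradiol lungs, 9.67, 9.14, 8.62 and 8.45 in hypoxia lungs and 9.87, 9.98, 9.55 and 10.27 in normoxia lungs. Both estradiol groups lay above all hypoxia arrays for these receptors, and estradiol replicate 3 was the highest of the 16 arrays.

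Il1r2, the decoy receptor that binds interleukin 1 without signalling, also carried by monocytes and macrophages (10922816), had log2 values of 6.84, 7.19, 7.07 and 6.95 in estradiol-fulvestrant lungs, 7.06, 8.93, 8.81 and 7.04 in estradiol lungs, 7.04, 6.68, 6.58 and 6.91 in hypoxia lungs and 7.08, 6.61, 6.65 and 7.33 in normoxia lungs. Only estradiol replicates 2 and 3 exceeded 7.33, the highest normoxia array. Fcar, the receptor for immunoglobulin A (10718934), ran from 6.36 to 6.88 in estradiol-fulvestrant lungs, 6.88 to 8.71 in estradiol lungs, 5.08 to 6.40 in hypoxia lungs and 6.15 to 6.79 in normoxia lungs. Clec4d, a C-type lectin that recognises microbial glycolipids and is also found on macrophages (10858599), ran from 8.64 to 9.15, from 8.83 to 10.46, from 7.59 to 8.49 and from 8.57 to 9.31 in the same order.

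**Figure D1:**
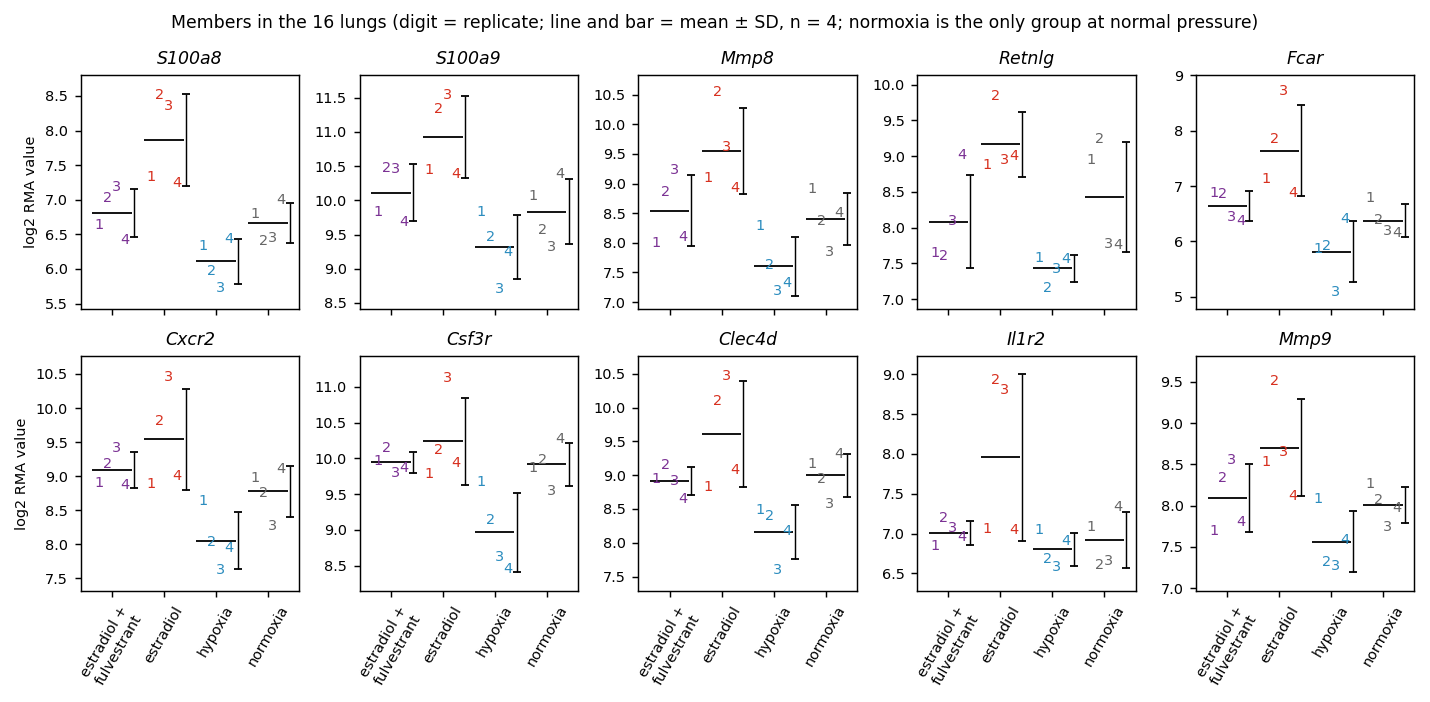
Log2 RMA value (vertical axes, each scaled to its gene) of the 10 members in the 4 groups, with each lung drawn as its replicate number, a line at the group mean and a bar of ± 1 SD (n = 4). Estradiol replicates 2 and 3 are the highest pair of all arrays in 8 of the 10 panels, and hypoxia replicate 3 is the lowest array in 8. The choice of the members favours both patterns.

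The 4 estradiol lungs were unequal. Replicates 2 and 3 were the 2 highest of the 16 arrays for 8 members (all but Retnlg and Csf3r), a pattern that 3.47% of all genes showed. At the other end, hypoxia replicate 3 was the lowest array for 8 members (all but Retnlg and Csf3r), against 4.43% of all genes. The members were chosen as high in estradiol and low in hypoxia arrays, which favours both patterns. The shares of all genes are therefore no test of the members. Averaged over the 10 members and set against the normoxia mean, the log2 level was -0.10, 0.25, 0.28 and -0.06 in estradiol-fulvestrant lungs, 0.36, 1.42, 1.44 and 0.33 in estradiol lungs, -0.25, -0.66, -1.05 and -0.63 in hypoxia lungs and 0.25, 0.00, -0.40 and 0.15 in normoxia lungs. The estradiol lungs thus formed a high pair and a low pair, and the low pair lay above every array of the other groups by a small margin.

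The difference that chose the members, estradiol minus hypoxia, was between 1.14 (Mmp9) and 1.94 (Mmp8) on the log2 scale, with a median of 1.55 against -0.02 over all genes. In this comparison 8 members were called at an adjusted p under 0.05, where 0.31% of all genes were called higher and 0.772% in either direction. The other 2, Il1r2 (1.16, SE 0.35) and Mmp9 (1.14, SE 0.26), were not. The arrays did not overlap for any of the 10, as for 3.19% of all genes. Without estradiol replicates 2 and 3 the differences ran from 0.25 (Il1r2) to 1.51 (Retnlg), with a median of 0.99, and 0 members were called. With normoxia replicate 4 counted as hypoxia the median was 1.33 and 0 were called. In both of these fits 0 of all genes were called.

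Estradiol-fulvestrant against normoxia is the pair of groups that had no part in choosing the members, and it asks whether hypoxic lungs with both drugs differed from control lungs. No member passed (limma, adjusted p from 0.697 for Cxcr2 to 0.984 for Csf3r), while 2.96% of all genes did. At an unadjusted p under 0.05 the count was 0 of 10, against 15.3% of all genes. The differences ran from -0.34 (Retnlg) to 0.32 (Cxcr2), 8 above 0 and 2 below, with a median of 0.12 against 0.00 over all genes, and the arrays overlapped for all 10, while 7.13% of genes lay wholly above and 5.2% wholly below normoxia. For S100a8 the means were 6.81 ± 0.35 in estradiol-fulvestrant lungs and 6.66 ± 0.29 in normoxia lungs (SD, n = 4 each), a difference of 0.15 with a 95% interval of -0.43 to 0.73. For Csf3r they were 9.95 ± 0.15 in estradiol-fulvestrant lungs and 9.92 ± 0.30 in normoxia lungs (SD, n = 4 each), a difference of 0.03 (95% interval -0.56 to 0.61). Such intervals do not show the groups to be alike. The count stayed at 0 without normoxia replicate 4 and with it counted as hypoxia.

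Estradiol-fulvestrant against estradiol asks what the receptor antagonist changed. The estradiol arrays helped to choose the members as high, which favours a difference below 0 here. All 10 were lower with fulvestrant, by a median of -0.88 (0.00 over all genes), and 0 passed (adjusted p from 0.095 to 0.687). Across all genes 7 passed, or 0.0483%. At an unadjusted p under 0.05 there were 8 of 10 members and 14.8% of genes. S100a8, with 6.81 ± 0.35 in estradiol-fulvestrant lungs and 7.86 ± 0.67 in estradiol lungs (SD, n = 4 each), differed by -1.04 (SE 0.27) and was the 1 member whose arrays did not overlap, as 4.27% of genes did not in this direction. Retnlg (-1.08, SE 0.35), Mmp8 (-1.01, SE 0.36), Fcar (-1.0, SE 0.33) and Il1r2 (-0.95, SE 0.35) differed by similar amounts. The receptors Cxcr2 (-0.44, 95% interval -1.08 to 0.19) and Csf3r (-0.29, 95% interval -0.88 to 0.29) differed less. Without estradiol replicates 2 and 3 the median was -0.27, and the differences of Cxcr2 (0.15) and Csf3r (0.09) were above 0. Without estradiol replicate 4 alone, 1 member passed, and 331 of all genes (2.28%).

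Against hypoxia, whose arrays helped to choose the members as low, the 10 members were higher in estradiol-fulvestrant lungs by 0.21 (Il1r2) to 1.04 (Cxcr2), with a median of 0.77 against -0.02 over all genes. None passed (limma, adjusted p from 0.57 to 0.948), and neither did any of the 14506 genes (0%). At an unadjusted p under 0.05 there were 7 of 10 members and 6.96% of genes. For Cxcr2 the means were 9.09 ± 0.26 in estradiol-fulvestrant lungs and 8.05 ± 0.42 in hypoxia lungs (SD, n = 4 each), and for Csf3r 9.95 ± 0.15 in estradiol-fulvestrant lungs and 8.97 ± 0.55 in hypoxia lungs (SD, n = 4 each). The arrays of these 2 receptors, of Clec4d and of Retnlg did not overlap, as for 2.29% of genes. With normoxia replicate 4 counted as hypoxia the median was 0.59 and 0 members passed.

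Hypoxia was lower than normoxia for all 10 members, by -0.12 (Il1r2) to -1.0 (Retnlg), with a median of -0.64 against 0.03 over all genes. The hypoxia arrays are again those that helped to choose the members. None passed, while 5.63% of all genes did. At an unadjusted p under 0.05 there were 5 of 10 members and 20.4% of genes. The nearest were Csf3r (-0.95, SE 0.28, limma adjusted p = 0.0564) and Retnlg (-1.0, SE 0.35, limma adjusted p = 0.112). Retnlg and Clec4d had arrays that did not overlap, as 5.33% of genes did in this direction. A single member passed without normoxia replicate 3, 1 without hypoxia replicate 1, and 1 when the dimmest genes (below the 0.25 quantile) were left out or arrays were weighted. In these fits 5.59%, 3.05%, 8.36% and 7.95% of all genes passed. Without normoxia replicate 4 the median was -0.62 and Il1r2 differed by 0.02, and with it counted as hypoxia the median was -0.45, with 0 members called in both.

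**Figure D2:**
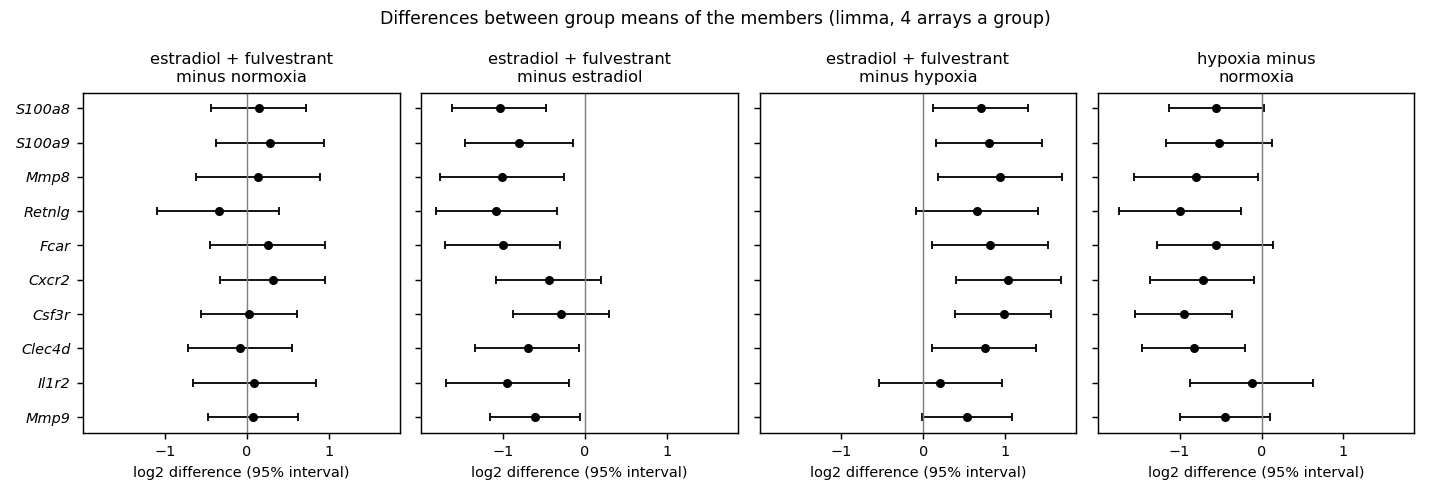
Difference of group means on the log2 scale (horizontal axis, points with 95% intervals from limma, 4 arrays a group) for the 10 members in 4 comparisons. All intervals of estradiol-fulvestrant minus normoxia span 0. The other 3 panels each hold a group whose arrays helped to choose the members.

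Estradiol minus normoxia, which shares the estradiol arrays with the choice, was above 0 for all 10, with a median of 0.90 against 0.00 over all genes. In all, 2 members were called, S100a8 (1.19, SE 0.27) and Fcar (1.26, SE 0.33), where 2.87% of genes were called higher and 5.21% in either direction. The arrays of S100a8, S100a9, Mmp8 and Fcar did not overlap, as for 5.03% of genes. Without estradiol replicates 2 and 3 the median was 0.41 and 0 were called, with 325 of all genes called. With normoxia replicate 4 counted as hypoxia the median was 1.02 and 1 was called (2.42% of all genes). Without estradiol replicate 1, 4 were called (4.56% of all genes) and without replicate 4, 5 were (6.11%). None was called without replicate 2 (3.53% of all genes) or replicate 3 (3.33%), and there were 0 or 1 without normoxia replicate 1, 2 or 3 (2.65% to 4.01%).

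Set in order, the group means of every member had estradiol highest and hypoxia lowest, an order that the choice of members largely fixes and that 6.6% of all genes showed. Between them stood estradiol-fulvestrant and normoxia, which did not differ beyond their spread for any member. The share of the estradiol-minus-hypoxia difference that remained with fulvestrant, a ratio of means without an error of its own, was 76.9% for Csf3r and 70.1% for Cxcr2. It was between 37.6% (Retnlg) and 51.5% (Clec4d) for 7 members and 18.0% for Il1r2. These shares rest on the unequal estradiol lungs. With replicates 2 and 3 left out they were 117% for Cxcr2, 110.3% for Csf3r, 94.1% for Clec4d, 83.6% for Il1r2 (over a difference of 0.25) and 43.4% to 73.1% for the other 6, so no order of members is read from them.

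The members were chosen as high in the estradiol arrays, and the high pair of estradiol lungs raised the mean of that group. The choice therefore favoured genes high in that pair, and the members' correlations within groups are not independent of it. After each group's mean was removed, the Pearson correlation over the 16 arrays had a median of 0.69 over the 45 pairs of members. Mmp8 and Mmp9 (r = 0.95), S100a9 and Cxcr2 (0.92) and Cxcr2 and Clec4d (0.92) were the closest, and the neighbours S100a8 and S100a9 had r = 0.89. Retnlg stood apart, with r from -0.08 to 0.36 to the others (median 0.07), while the 36 pairs without it ran from 0.27 (Csf3r with Mmp9) to 0.95. With the protease pair Csf3r had r = 0.43 (Mmp8) and 0.27 (Mmp9). All these correlations come from the same arrays, and the high pair of estradiol lungs weighs on them. Without that pair the median over the 45 pairs was 0.57.

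**Figure D3:**
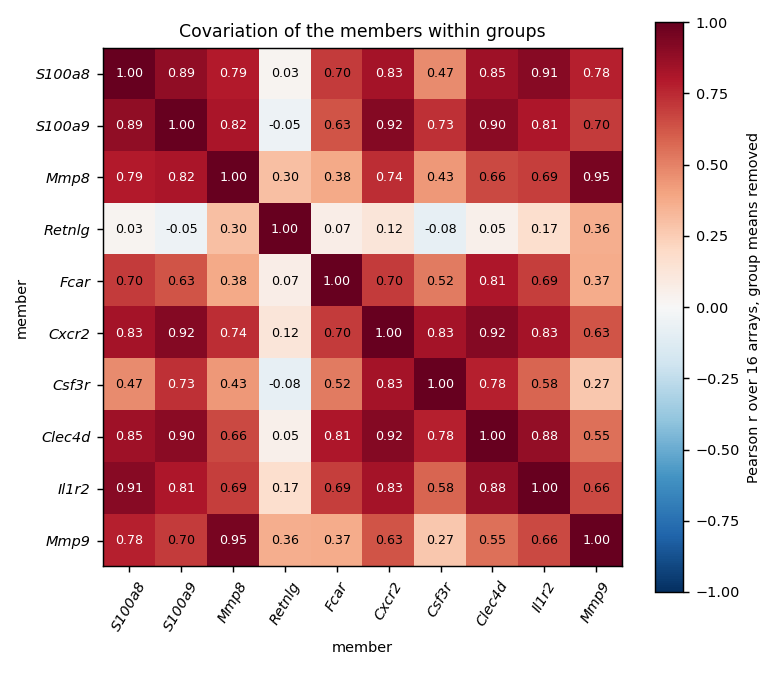
Pearson correlation (colour and number, from -1 to 1) between members over the 16 arrays after removal of group means, with members on both axes. Retnlg is pale throughout its row, at -0.08 to 0.36, and Mmp8 with Mmp9 is the darkest pair at 0.95.

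Outside the members, the genes that followed their mean level most closely within groups were Prok2, a chemotactic peptide of myeloid cells (r = 0.93), the lipid-binding protein gene Osbpl11 (0.92), the cytokine Il1b (0.92), the co-stimulatory gene Cd86 (0.90), the MYC-network repressor Mxd1 (0.88), the vesicle-transport GTPase Rab27a (0.88), the lectin Clec4e (0.87), the acid-sensing receptor Gpr65 (0.86), the lactate exporter Slc16a3 (0.86) and the killer cell lectin Klrb1b (0.86). Without estradiol replicates 2 and 3 these r ran from 0.55 (Klrb1b) to 0.83 (Il1b). Over the other genes the 5% and 95% quantiles of r were -0.51 and 0.53. In estradiol lungs against hypoxia lungs, Clec4e (1.13), Il1b (1.01) and Prok2 (0.82) had limma adjusted p of 0.0799, 0.0814 and 0.0785, and none of the 10 passed. In estradiol-fulvestrant against normoxia lungs none of the 10 passed either, with Slc16a3 nearest (0.67, limma adjusted p = 0.0563).

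Other genes of neutrophils, their ligands and other cells were measured beside the members, 127 in all. Their calls also rest on the arrays in doubt, in a check chosen after the data were seen. Without estradiol replicates 2 and 3, 0 of the 6 listed genes called for estradiol against hypoxia passed, 0 of 2 for estradiol-fulvestrant against estradiol and 9 of 24 for estradiol against normoxia. When normoxia replicate 4 was moved to hypoxia, 2 of the 10 called for estradiol-fulvestrant against normoxia passed, 9 of 24 for estradiol against normoxia, 2 of 22 for hypoxia against normoxia and 0 of 6 for estradiol against hypoxia. With it left out, 8 of 10, 15 of 24, 16 of 22 and 6 of 6 passed. Each difference kept its sign in these fits. Without the estradiol pair the estradiol-minus-normoxia differences of Atf3 (0.77), Mt1 (0.64), Junb (0.56), Mt2A (0.39), Hcar2 (0.31), Jun (0.28) and Cebpb (0.24) and the estradiol-minus-hypoxia difference of Per1 (0.86) were smaller by over 1.5 times.

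Of 13 other granule and secreted proteins, 0 passed in either direction for estradiol against hypoxia (median 0.08 against -0.02 over all genes). Mpo, myeloperoxidase, had 6.48, 6.59, 6.23 and 6.58 in estradiol lungs against 6.57, 6.39, 6.13 and 6.23 in hypoxia lungs, and Ltf, lactoferrin, 5.81, 6.09, 5.96 and 6.06 in estradiol lungs against 6.21, 6.02, 5.98 and 5.87 in hypoxia lungs. Both sets of arrays overlapped. Elane (0.12), Prtn3 (-0.08) and Ctsg (-0.07), serine proteases of the primary granules, did not pass. All values of Mpo, Ltf, Elane, Prtn3 and Ctsg lay below every array median, where RMA compresses differences. Outside the estradiol lungs, all values of the members S100a8, Fcar and Il1r2 lay below every array median too. Camp, the cathelicidin precursor, had 7.37, 8.03, 7.15 and 6.91 in estradiol lungs against 6.86, 6.87, 6.94 and 6.75 in hypoxia lungs (0.51, SE 0.18, limma adjusted p = 0.188). Pglyrp1 had 8.37, 9.03, 9.30 and 8.68 in estradiol lungs against 8.47, 8.36, 7.85 and 7.85 in hypoxia lungs. Its arrays overlapped, and its correlation with the members' mean within groups was 0.82, the highest of the list. Lcn2 was the lowest of the list at -0.39, and Mpo was at 0.12. Ngp, a neutrophil granule protein, was uneven, with 8.98, 9.97, 7.56 and 7.06 in estradiol lungs against 7.06, 6.64, 6.13 and 6.83 in hypoxia lungs (1.73, SE 0.50, limma adjusted p = 0.115). Lcn2, a siderophore-binding protein that epithelium also secretes, differed by -0.76 in estradiol against hypoxia lungs (SE 0.31, limma adjusted p = 0.256). It rose in hypoxia against normoxia (1.26, SE 0.31, limma adjusted p = 0.0269). That call was lost without normoxia replicate 4 (1.19, limma adjusted p = 0.0663) and with it counted as hypoxia (0.89, limma adjusted p = 0.301).

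Of 13 other surface receptors and adhesion genes, 0 passed for estradiol against hypoxia (median 0.26). The largest differences were Clec4e, which lies beside Clec4d, and Fpr1, the receptor for formylated bacterial peptides (1.11, SE 0.28, limma adjusted p = 0.0740). Against normoxia, estradiol lungs were higher in Trem1, an amplifier of inflammatory signals (0.87, limma adjusted p = 0.0147), Hcar2, a receptor for hydroxybutyrate and niacin (0.74, limma adjusted p = 0.0408), and Cxcr1. Cxcr1, the other receptor for interleukin 8 in man and the direct neighbour of Cxcr2, did not share the pattern of Cxcr2. Its log2 values were 9.31, 10.05, 9.43 and 10.13 in estradiol-fulvestrant lungs, 10.00, 10.24, 10.07 and 9.61 in estradiol lungs, 10.33, 10.15, 9.52 and 10.47 in hypoxia lungs and 8.60, 9.03, 8.81 and 9.15 in normoxia lungs. All 3 hypoxic groups lay above normoxia without overlap. Cxcr1 differed from normoxia by 0.84 with estradiol and fulvestrant (limma adjusted p = 0.04999), by 1.08 with estradiol (limma adjusted p = 0.00991) and by 1.22 in hypoxia (limma adjusted p = 0.0033). The first of these calls was lost without normoxia replicate 4 (0.92, limma adjusted p = 0.0607) and with it counted as hypoxia (limma adjusted p = 0.163). It was also lost without the estradiol pair (limma adjusted p = 0.0518), as was the second (0.91, limma adjusted p = 0.113). The third was lost with normoxia replicate 4 counted as hypoxia (1.11, limma adjusted p = 0.0839). In turn, estradiol lungs differed from hypoxia lungs by -0.14 (limma adjusted p = 0.802). Cxcr2 was -0.72 from normoxia in hypoxia, and the contrast between the 2 genes was not tested.

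**Figure D4:**
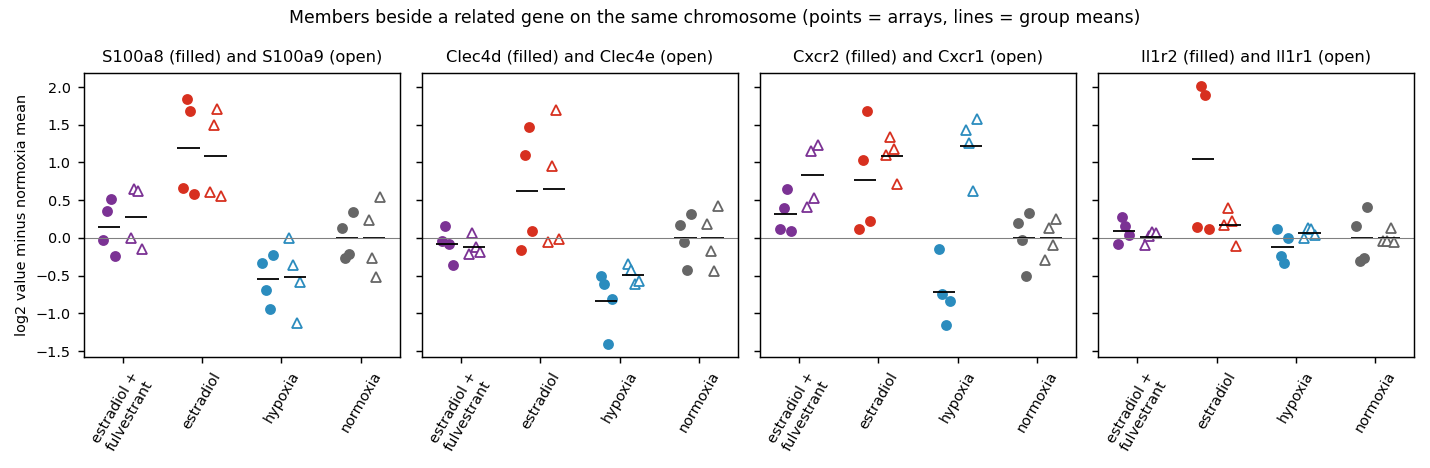
Log2 value minus the gene's normoxia mean (vertical axis) in the 4 groups, for 4 members (filled circles) beside a related gene of the same chromosome (open triangles), with points for arrays and lines for group means. S100a9 and Clec4e follow their partners, Cxcr1 is above normoxia in all hypoxic groups with and without estradiol, and Il1r1 stays near its normoxia level.

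The nearest measured neighbours on each side of the members that are no members themselves numbered 18, and 0 of them passed for estradiol against hypoxia by limma (4 at an unadjusted p under 0.05, and 16.1% of all genes). Their differences ran from -0.26 (Grik3) to 1.13 (Clec4e), with a median of 0.09. Mmp10 (0.19) and Mmp27 (-0.04) flank Mmp8, S100a7a (0.00) lies on the other side of S100a8, and Retnla (0.58, SE 0.80), lies next to Retnlg. Il1r1, the signalling receptor for interleukin 1, differed by 0.10 (SE 0.09).

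Of 8 genes of the oxidase, of signalling and of leukotriene synthesis, 0 passed for estradiol against hypoxia (median 0.18). Alox5ap, which presents arachidonate to 5-lipoxygenase, differed by 0.37 (SE 0.11, limma adjusted p = 0.134) and Padi4, which citrullinates histones, by 0.34 (SE 0.11, limma adjusted p = 0.163). Padi4 (0.44, limma adjusted p = 0.0333) and the oxidase subunit Ncf1 (0.63, limma adjusted p = 0.0312) were higher in estradiol than in normoxia lungs. Ncf1 was also 0.49 above normoxia in hypoxia lungs (limma adjusted p = 0.082), and its estradiol-minus-hypoxia difference was 0.14 (limma adjusted p = 0.718). With normoxia replicate 4 counted as hypoxia both calls were lost (limma adjusted p of 0.0517 and 0.0507). Without the estradiol pair the call of Ncf1 was lost (limma adjusted p = 0.1) and that of Padi4 held. Of 5 granulocyte transcription factors 0 passed for estradiol against hypoxia (median 0.13), with Cebpd at 0.60 (SE 0.22) and Cebpb at 0.53 (SE 0.17). Cebpb rose in estradiol against normoxia lungs (0.62, limma adjusted p = 0.041). Gfi1, a transcriptional repressor needed for granulocyte development, fell against normoxia in estradiol-fulvestrant (-0.31), estradiol (-0.41) and hypoxia lungs (-0.36), with limma adjusted p of 0.00866, 0.000988 and 0.00204.

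Of 13 ligands and partners of the members, 1 fell and 0 rose for estradiol against hypoxia (median 0.10). Cxcl6, a CXCR2 ligand, was the 1 that fell (-0.90, SE 0.18, limma adjusted p = 0.0362). It had 6.21, 6.36, 6.45 and 6.38 in estradiol lungs against 6.86, 7.46, 7.02 and 7.65 in hypoxia lungs, with no overlap, and it rose in hypoxia against normoxia (0.89, limma adjusted p = 0.00701). The call of its fall was lost without the estradiol pair (-0.95, limma adjusted p = 0.218). With normoxia replicate 4 counted as hypoxia both calls were lost (-0.70 and 0.66, limma adjusted p = 0.21 for both). Cxcl2, another CXCR2 ligand, had 6.44, 9.16, 6.46 and 5.04 in estradiol lungs against 5.38, 6.15, 5.59 and 5.78 in hypoxia lungs (1.05, SE 0.55, limma adjusted p = 0.362), so that its difference came largely from replicate 2. Csf3, the ligand of Csf3r, stayed between 6.66 and 6.92 in all 16 arrays, below every array median, where RMA compresses differences. Il1b had 9.19, 10.11, 10.55 and 9.08 in estradiol lungs against 8.94, 9.05, 8.26 and 8.65 in hypoxia lungs, again highest in replicates 2 and 3. Il1rn, the interleukin 1 receptor antagonist, rose in estradiol against normoxia lungs (1.04, limma adjusted p = 0.0213). That call was lost without the estradiol pair (0.70, limma adjusted p = 0.221). Timp1, an inhibitor of Mmp9, rose in hypoxia against normoxia (0.57, limma adjusted p = 0.0396). Its call was lost without normoxia replicate 4 (0.47, limma adjusted p = 0.106) and with it counted as hypoxia (0.28, limma adjusted p = 0.537). Of 6 genes of vessel adhesion and marrow retention 0 passed for estradiol against hypoxia (median -0.18), and Cxcl12, the ligand that holds neutrophils in the marrow, rose against normoxia in estradiol-fulvestrant (0.73), estradiol (0.52) and hypoxia lungs (0.75), with limma adjusted p of 0.00266, 0.024 and 0.00182.

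Markers of other blood and lung cells were set beside the members. The mean of 6 erythrocyte genes above normoxia was 0.78, 1.95, 1.06 and 0.65 in estradiol-fulvestrant lungs, 1.67, 0.45, -0.21 and 0.93 in estradiol lungs, 2.06, 1.67, -0.08 and 1.84 in hypoxia lungs and -0.15 to 0.21 in normoxia lungs. Among the estradiol lungs the pair with the highest member levels had the lowest erythrocyte levels. Hypoxia replicate 3, lowest in most members, was the lowest of its group in erythrocyte genes too. Hbb, a haemoglobin chain, had 13.27, 11.84, 11.34 and 12.95 in estradiol lungs against 13.34, 13.25, 11.29 and 13.28 in hypoxia lungs. Of the erythrocyte genes Hemgn alone passed in a comparison, higher in hypoxia than in normoxia (1.27, limma adjusted p = 0.0431). The part of blood left in the vessels in the members' levels was not tested beyond these values.

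Of 12 markers of monocytes and macrophages, 1 rose and 1 fell for estradiol against hypoxia (median -0.07). Mrc1, the mannose receptor of resident macrophages, rose, with 11.63, 11.44, 11.78 and 11.33 in estradiol lungs against 11.13, 10.93, 11.04 and 11.11 in hypoxia lungs (0.49, SE 0.09, limma adjusted p = 0.0362). Cx3cr1, the fractalkine receptor of patrolling monocytes, fell, with 9.13, 9.20, 9.15 and 9.53 in estradiol lungs against 10.10, 9.86, 9.87 and 10.14 in hypoxia lungs (-0.74, SE 0.12, limma adjusted p = 0.0295). Neither pair of groups overlapped. With fulvestrant added Mrc1 was lower than in estradiol lungs (-0.57) and Cx3cr1 higher (0.72), both with a limma adjusted p of 0.0403. None of these calls held without estradiol replicates 2 and 3, although the differences were of like size: Mrc1 was 0.43 and Cx3cr1 -0.66 against hypoxia (limma adjusted p = 0.218 for both), and -0.51 and 0.64 with fulvestrant against estradiol (limma adjusted p of 0.179 and 0.27). With normoxia replicate 4 counted as hypoxia the calls against hypoxia were lost too (limma adjusted p = 0.0654 for both). Against normoxia, C1qa, C1qb, C1qc, Pparg and Fabp4 rose in hypoxia by 0.60 to 0.88, C1qb, C1qc and Pparg rose in estradiol-fulvestrant lungs by 0.52 to 0.55, and in estradiol lungs C1qb, Pparg and Mrc1 rose while Csf1r (-0.22) and Cx3cr1 (-0.74) fell.

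The 9 lymphocyte markers had 0 passing for estradiol against hypoxia (median 0.32). Cd3d, Cd3e, Gzma, Klrd1, Ncr1 and Nkg7 fell in hypoxia against normoxia, by -0.62 to -1.32, and Gzma and Klrd1 also fell against normoxia in estradiol-fulvestrant (-0.91 and -0.62) and estradiol lungs (-0.89 and -0.54). Of 4 eosinophil, 7 mast cell and 2 platelet markers 0 passed for estradiol against hypoxia. Ccr3, of eosinophils, fell in hypoxia against normoxia (-0.36), and Kit, which mast cells share with other lung cells, fell against normoxia in estradiol-fulvestrant (-0.56), estradiol (-0.75) and hypoxia lungs (-0.73). The defining eosinophil genes Epx and Prg2 and the platelet gene Pf4 did not pass in any comparison. Within groups, the correlation of lymphocyte markers with the members' mean ran from -0.07 to 0.79 (Nkg7). For eosinophil markers it ran from 0.10 to 0.71 (Ccr3), with Prg2 at 0.64. Following the members within groups was thus not confined to genes of neutrophils.

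Stress-responsive genes were set beside the unequal estradiol lungs as list means. The mean of 11 glucocorticoid-responsive genes above normoxia was -0.41 to 0.14 in estradiol-fulvestrant lungs, 0.44, 1.02, 0.64 and 0.19 in estradiol lungs, -0.34 to -0.06 in hypoxia lungs and -0.19 to 0.26 in normoxia lungs. Of these genes 3 rose and 0 fell for estradiol against hypoxia (median 0.61): Per1 (1.31), Tsc22d3 (0.90) and Klf9 (0.71). Without the estradiol pair the differences were 0.86, 0.94 and 0.61, and all 3 calls were lost (limma adjusted p of 0.392, 0.218 and 0.246). They were also lost with normoxia replicate 4 counted as hypoxia (limma adjusted p of 0.0936, 0.166 and 0.136). Per1 had 11.07, 11.85, 11.55 and 10.50 in estradiol lungs, highest in replicates 2 and 3, while Tsc22d3 was level there at 11.26, 11.26, 11.07 and 11.22. Within groups the correlation with the members' mean was 0.84 for Mt1, 0.72 for Mt2A, 0.71 for Pdk4 and 0.67 for Errfi1. It was 0.60 for Per1, 0.37 for Fkbp5 and 0.35 for Klf9. The rest of the list was below 0, with -0.11 for Tsc22d3, -0.06 for Ddit4, -0.19 for Sgk1 and -0.23 for Zbtb16. Ddit4, Mt1, Mt2A and Sgk1 rose in estradiol against normoxia lungs by 0.91 to 1.19, Mt1 (0.94) and Sgk1 (0.81) in hypoxia and Sgk1 (0.94) in estradiol-fulvestrant lungs. Without the estradiol pair the estradiol-against-normoxia calls of Ddit4, Mt1 and Mt2A were lost (limma adjusted p of 0.128, 0.14 and 0.307). That of Sgk1 held. The mean of 11 immediate early genes, which respond within minutes to many stimuli, was 0.19 to 0.59 in estradiol-fulvestrant lungs, 0.36, 1.92, 1.05 and 0.29 in estradiol lungs and -0.01 to 0.97 in hypoxia lungs, with -0.10 to 0.11 in normoxia lungs. None of them passed for estradiol against hypoxia, and Atf3 (1.92), Junb (0.94) and Jun (0.46) rose in estradiol against normoxia lungs. Those 3 calls were lost without the estradiol pair (limma adjusted p of 0.13, 0.244 and 0.211). Both list means were highest in replicates 2 and 3 of the estradiol group, as the members' was, though not each gene in them, and the part of these responses in the members' levels was not tested.

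**Figure D5:**
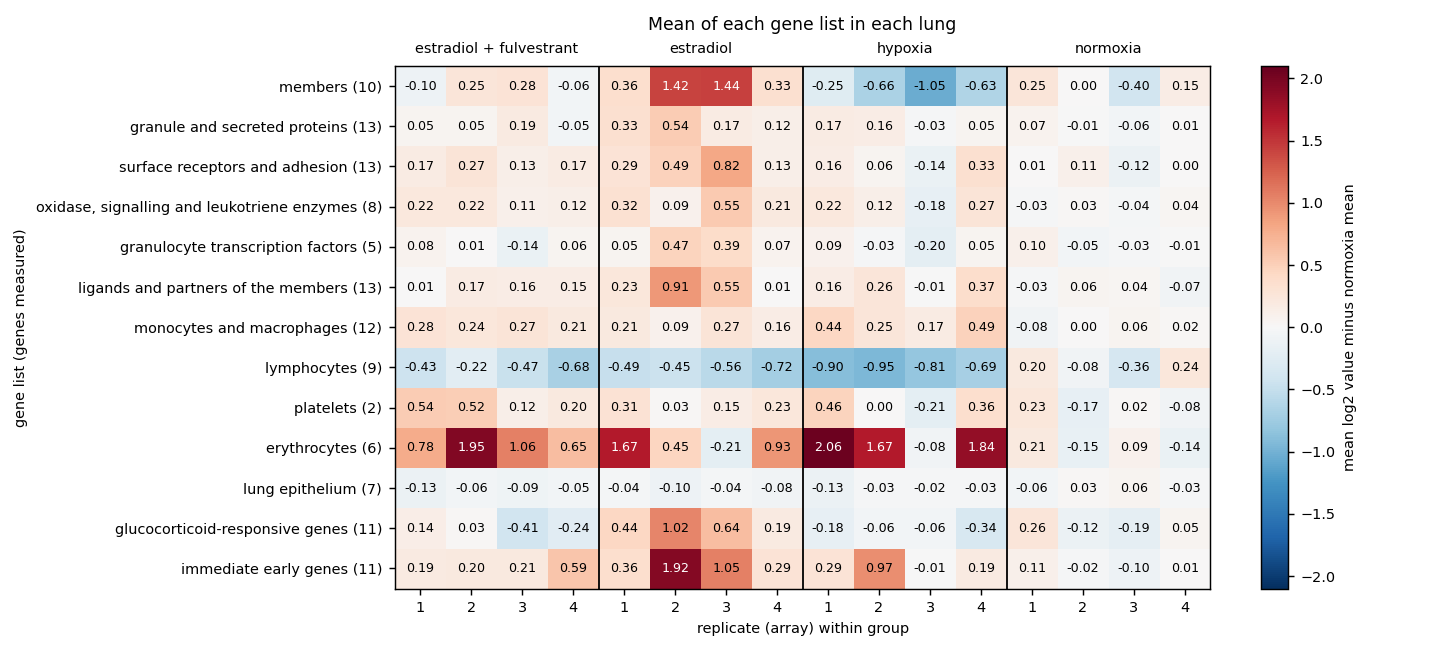
Mean log2 value minus the normoxia mean (colour and number) of the members and of 12 gene lists (rows, genes measured in brackets) in the 16 arrays (columns, by group and replicate). The members, the immediate early genes and the glucocorticoid-responsive genes reach 1.42, 1.92 and 1.02 in estradiol replicate 2, while the lung epithelium row stays between -0.13 and 0.06.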

How the data were processed

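RNA of 16 right lungs was labelled with biotin and hybridised to 1 array each. The deposited table holds log2 values that the authors made with RMA and Partek, per the submitters' processing notes. RMA corrects background, normalizes between arrays and summarises probe sets. Versions, settings and the genome build are not given in the sources used here. RMA hides shifts shared by most genes and compresses differences of dim probe sets. Arrays have no read depth; their number, 4 a group, limits the precision.

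Of 29214 probe sets, 15310 had 1 gene symbol in the platform annotation, 323 several and 13581 none. Symbols were updated by gene ID. The probe set with the highest mean stood for a gene (527 genes had several), which left 14506 genes. Groups came from sample titles, and replicate numbers follow the order of submission. Each array is 1 rat. No batch is given, and submission follows the groups, so batch and group cannot be told apart.

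One linear model with 4 group means over 16 arrays was fitted with limma 3.58.1 in R 4.3.3 (empirical Bayes, Benjamini-Hochberg over all genes, threshold 0.05), and it was tested on simulated data. SE and 95% intervals are from the moderated fit. Of 147 listed genes 127 were measured. The members, lists and alternatives were chosen with earlier results of these data known. Genes named are the members, listed genes that passed in a comparison, the 2 largest estradiol-minus-hypoxia differences of each neutrophil and ligand list, and the 10 genes closest to the members' standardised mean within groups. Mpo, Ltf, Camp, Pglyrp1, Elane, Prtn3, Ctsg, Zbtb16, Pdk4, Errfi1, Fkbp5, Csf3, Hbb, Epx, Prg2 and Pf4 were added after values were seen. So were the lung markers and the chromosomal neighbours.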

Additional observations from a re-analysis of the deposited data

Results flagged for a closer look

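Of 40 sets of 4 arrays (10 members in 4 groups), 1 held an array far from the rest, where chance gives about 2. Retnlg in estradiol lungs had 9.84 in replicate 2, with the other 3 between 8.87 and 9.00, and the gap was 0.866 of the range. The high pairs of the other members do not meet such a criterion, since 2 arrays shield each other.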

How the results depend on the processing

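With 4 arrays a group the limit is replicate spread: standard errors of the members' differences were 0.26 to 0.36. No paired analysis was possible because the labels give the groups no shared replicate numbers. For estradiol-fulvestrant against normoxia and against hypoxia 0 members were called under every alternative run. Leaving out 1 array at a time gave 0 to 1 calls for estradiol-fulvestrant against estradiol, 0 to 1 for hypoxia against normoxia, 0 to 10 for estradiol against hypoxia (8 with all arrays), 0 to 5 for estradiol against normoxia (2 with all arrays) and a median correlation between members of 0.61 to 0.74. Hypoxia against normoxia had 1 call without the dimmest genes and 1 with array weights. Estradiol against hypoxia had 0 calls when all probe sets were tested, 0 with normoxia replicate 4 counted as hypoxia, 0 without estradiol replicates 2 and 3 together, 1 with only the 8 arrays compared and 1 with array weights. It had 1 without hypoxia replicate 1, 0 without replicate 2, 3 without replicate 3, 1 without replicate 4, and 0 without estradiol replicate 2 or 3. Genes called in all numbered 112, against 4 over all probe sets and 0 with normoxia replicate 4 as hypoxia. With that replicate as hypoxia the count for estradiol-fulvestrant against normoxia was 100 in place of 430, and for hypoxia against normoxia 40 in place of 817. Estradiol against normoxia had 1 call over all probe sets, 1 with normoxia replicate 4 as hypoxia, 1 with array weights, 0 with only the 8 arrays compared and 0 without estradiol replicates 2 and 3. The cause was not tested.

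No called difference of a member turned its sign. Uncalled ones that did were, for estradiol-fulvestrant against normoxia, Clec4d (0.02 with normoxia replicate 4 as hypoxia or left out, 0.01 without estradiol-fulvestrant replicate 4), Il1r2 (-0.01 without normoxia replicate 2), Mmp8 (-0.05), Csf3r (-0.10) and Mmp9 (-0.01) without normoxia replicate 3, Csf3r (-0.04) without estradiol-fulvestrant replicate 2, and Mmp8 (-0.09) and Mmp9 (-0.07) without replicate 3. Against estradiol they were Csf3r (0.00 without estradiol replicate 3) and, without replicates 2 and 3, Cxcr2 (0.15) and Csf3r (0.09). For hypoxia against normoxia it was Il1r2 (0.12 with normoxia replicate 4 as hypoxia, 0.02 without it). For estradiol against normoxia, without estradiol replicates 2 and 3, they were Csf3r (-0.07) and Clec4d (-0.03). With 1 array left out at a time, estradiol-fulvestrant minus normoxia ran from -0.09 to 0.32 for Mmp8, -0.10 to 0.14 for Csf3r, -0.22 to 0.02 for Clec4d, -0.01 to 0.23 for Il1r2 and -0.07 to 0.21 for Mmp9. Csf3r ran from -0.44 to 0.00 against estradiol, and Il1r2 from -0.22 to 0.02 for hypoxia minus normoxia.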
